A study of Mus musculus with 16 samples.

Results

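Brain endothelial cells (bECs) of mice that lacked YAP and TAZ in the endothelium were compared with those of control littermates after experimental stroke. The comparison sets the 4 YT-iKO MCAo libraries against the 4 CTRL MCAo libraries, 8 of the 16 RNA sequencing libraries of the study, across every gene of the deposited count table. The 8 libraries of sham-operated mice, 4 of each genotype, entered the same model, where they share in the filter, the library scale and the estimate of the spread, and they also gave the sham contrast. YT-iKO mice were Pdgfb-iCreER-eGFP Tg/+ with Yap fl/fl and Taz fl/fl alleles, so that tamoxifen switches on a Cre recombinase in cells that use the Pdgfb promoter, chiefly endothelial cells. CTRL littermates carried the floxed Yap and Taz alleles without the Cre transgene, and both genotypes received tamoxifen before surgery. The transgene also brings Cre and eGFP into YT-iKO cells only, so effects of the transgene and of the loss of YAP/TAZ cannot be told apart. In middle cerebral artery occlusion (MCAo) the artery was closed for 30 minutes and reopened, and in sham surgery it was not closed. RNA was taken 72 hours after surgery from cells sorted as DAPI- CD45- CD31+ and amplified with a SMART-Seq Ultra Low Input kit. Each library is a pool of several mice, so the spread between libraries is that between pools, and the number and sexes of the mice in each pool were not used here. In bulk RNA, fewer cells of a type and less RNA per cell cannot be told apart.

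YAP and its paralog TAZ (gene Wwtr1) are transcriptional coactivators at the end of the Hippo pathway. They do not bind DNA themselves. The kinases LATS1 and LATS2 hold them in the cytoplasm, and when they reach the nucleus they act mostly through the TEAD family of DNA-binding proteins. In endothelial cells they respond to flow, stretch and growth factors, and they are known for their part in sprouting angiogenesis, in the cytoskeleton and junctions of growing vessels and in the restraint of BMP signalling. Widely used target genes are Ccn1, Ccn2, Ankrd1 and Amotl2.

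The total count per library was 11418262 to 23074547 in YT-iKO MCAo and 12012438 to 19504260 in CTRL MCAo. The unit of level is CPM, in which a count is divided by a library scale taken from genes that average 10 CPM or more. All 13 endothelial markers were above 1 CPM on average. Pecam1, Cdh5 and Cldn5, which define endothelium, had 1141 to 1572, 1252 to 1541 and 944 to 1834 CPM over the 8 MCAo libraries. Some libraries stood apart. Counts on 1560 olfactory, vomeronasal and taste receptor genes, which bECs do not use, had a density of 0.105, 0.329, 0.393 and 0.164 CPM per kb of exon in CTRL MCAo replicates 1 to 4. In YT-iKO MCAo replicates 1 to 4 the density was 0.147, 0.578, 0.445 and 0.0308. YT-iKO MCAo replicate 2 was thus the highest and replicate 4 the lowest of the 8, and replicate 4 had a count on 29179 genes against 35293 to 36900 in the other MCAo libraries. The density did not separate the genotypes (exact permutation test, two-sided, p = 0.714).

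**Figure D1:**
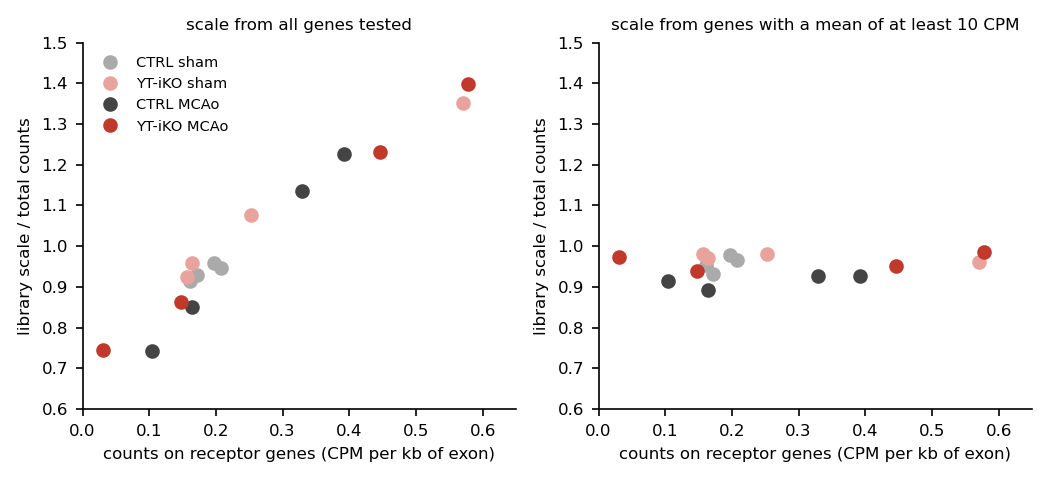
Library scale divided by total counts (y axis) against the density of counts on receptor genes in CPM per kb of exon (x axis), 1 point per library, coloured by group. With the scale from all genes tested (left) the ratio runs from 0.743 to 1.40 over the MCAo libraries and follows the density, and with the scale from abundant genes (right, average of 10 CPM or more) it runs from 0.893 to 0.985.

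All counts were therefore read in 2 fits. The first took all 31085 genes that passed edgeR's filter on low counts. The second took 9123 abundant genes, those that average 10 CPM or more over the 16 libraries, with the library scale set by these genes alone. Its common dispersion was 0.0224 against 0.160 in the first fit. Both used edgeR's quasi-likelihood test with all 4 groups in the model, with Benjamini-Hochberg adjustment, and a gene was called where the adjusted p was under 0.1. Fold changes and adjusted p values are from the fit across all genes unless the fit of abundant genes is named.

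Yap1 and Wwtr1, the targeted genes, were both lower in YT-iKO bECs after MCAo. Yap1 (ENSMUSG00000053110, chr9:7931999-8004596 of GRCm38) had 108, 106, 107 and 120.5 CPM in the CTRL MCAo libraries and 44.7, 52.6, 52.1 and 48.3 CPM in the YT-iKO MCAo libraries. Wwtr1 (ENSMUSG00000027803, chr3:57455649-57575910) had 356, 319, 310.3 and 364 CPM in CTRL and 76.9, 107, 78.7 and 104 CPM in YT-iKO. Neither gene had an overlap between the groups, and YT-iKO kept 44.9% of the CTRL mean of Yap1 and 27.2% of that of Wwtr1. The log2 fold change was −1.17 (standard error 0.22, adjusted p = 0.0478) for Yap1 and −1.88 (standard error 0.28, adjusted p = 0.00356) for Wwtr1. Counts cover all exons of a gene, whether or not Cre removes them, and so do not give the share of recombined cells. Yap1 also shares exons with the annotated gene Gm20416.

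Of the 31085 genes tested, 22 were called (0.0708%), 21 lower and 1 higher in YT-iKO, and 464 had an unadjusted p under 0.05. The median log2 fold change of all genes was 0.03. In all 22 the 4 YT-iKO libraries lay on one side of the 4 CTRL libraries, as they did in 1007 of the 31085 genes (3.24%). For a single gene this gives an exact permutation p of 0.0286 on log2(CPM + 1), the smallest that the 70 assignments of 4 and 4 libraries allow. The number lower was 21 without YT-iKO MCAo replicate 2, 43 without replicate 4 and 17 without both. Leaving out CTRL MCAo replicate 4 gave 10, and leaving out YT-iKO MCAo replicate 3 gave 11. It was 13 when either YT-iKO sham replicate 4 or CTRL sham replicate 2 was left out. When the replicate number was added as a block over all 16 libraries, 31 genes were lower and 3 higher, and the 8 MCAo libraries alone gave 29 and 3. On the same 31085 genes DESeq2 gave 80 lower and 12 higher, limma-voom 200 and 57, and edgeR with receptor-gene density as a term 230 and 48. By default DESeq2 can leave genes of low mean count out of its adjustment, so its count is not fully like for like. All 22 genes were called with the block, by DESeq2, by limma-voom and with the density term, and 20 of them in the 8 MCAo libraries alone.

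**Figure D2:**
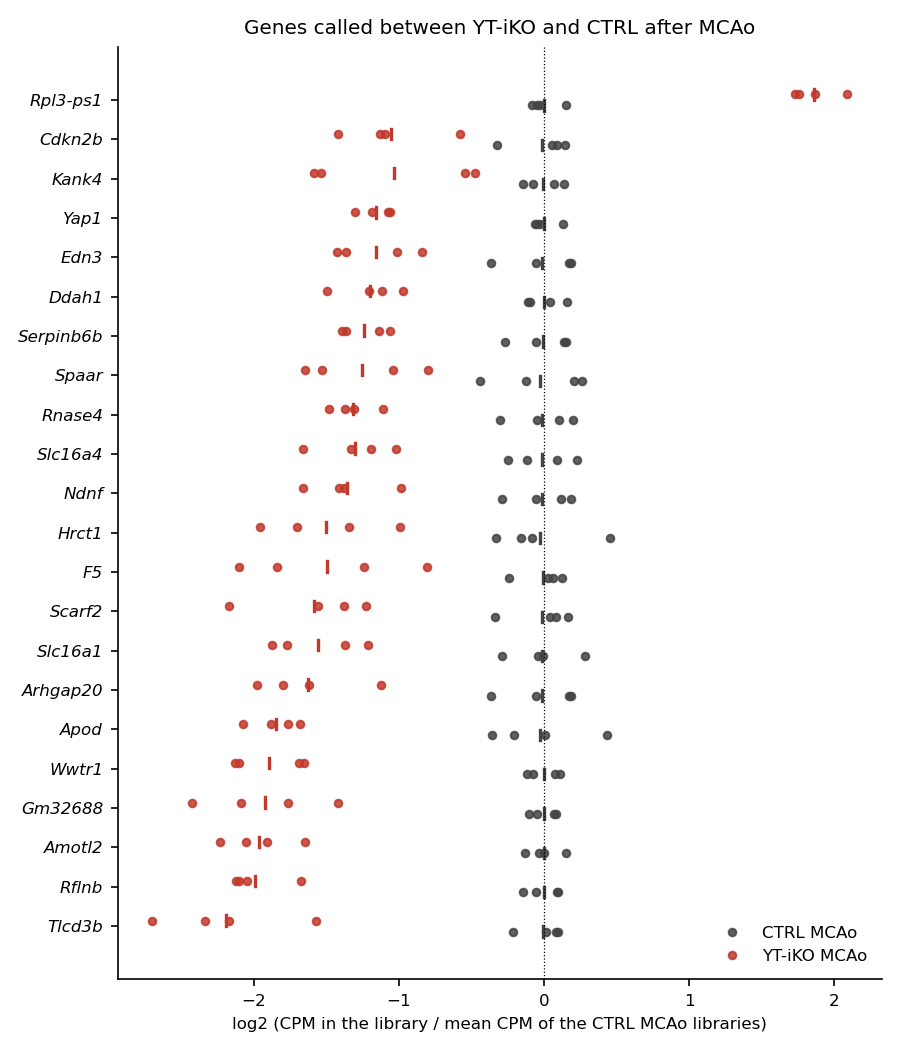
Levels of the 22 genes called after MCAo, as log2 of the CPM in a library over the mean CPM of the CTRL MCAo libraries (x axis), 1 point per library and a bar at the mean of the log2 values, with 4 libraries per genotype. No gene has a YT-iKO library among the CTRL libraries, and Rpl3-ps1 alone lies above 0 in YT-iKO.

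Amotl2 and Rflnb were among the genes with the largest decrease, and Kank4 among those with the smallest. Amotl2, an angiomotin that binds YAP at junctions and is itself a YAP/TAZ target, had 205, 232, 191 and 209.6 CPM in the CTRL MCAo libraries. In YT-iKO it had 67.0, 50.3, 55.6 and 44.5 CPM (log2 fold change −1.95, standard error 0.24, adjusted p = 7.49e-04). Every YT-iKO library was thus well under every CTRL library. Rflnb, refilin B, which helps to bundle actin, had 92.8, 87.5, 103 and 103 CPM in CTRL and 30.2, 22.5, 22.2 and 23.3 CPM in YT-iKO (−1.95, adjusted p = 0.00356). Kank4, a KANK family scaffold linked to focal adhesions, had 42.5, 38.3, 36.6 and 44.7 CPM in CTRL. In YT-iKO its libraries split, with 13.9 and 13.5 CPM in replicates 1 and 4 and 29.1 and 27.8 CPM in replicates 2 and 3 (−1.08, adjusted p = 0.0686).

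Arhgap20, a GTPase-activating protein, differed from most of the other called genes in its sham levels. It had 82.6, 69.8, 56.4 and 81.8 CPM in the CTRL MCAo libraries and 18.5, 33.3, 23.7 and 20.9 CPM in the YT-iKO MCAo libraries (log2 fold change −1.69, standard error 0.23, adjusted p = 0.00188). In sham libraries it had 27.9, 22.2, 21.6 and 23.9 CPM in CTRL and 18.6, 16.3, 22.7 and 17.4 CPM in YT-iKO. The YT-iKO MCAo level thus lay near the level of both sham groups, whereas CTRL MCAo stood above the other 3 groups without overlap. The difference between its genotype effects after MCAo and after sham was −1.17 on the log2 scale (unadjusted p = 0.0015, adjusted p = 1 by edgeR). Among abundant genes it had an unadjusted p of 6.85e-05 and an adjusted p of 0.625, and it was called there by DESeq2 (−1.25, adjusted p = 0.00348) and by edgeR without YT-iKO MCAo replicate 2 (−1.44, adjusted p = 0.0194).

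A pair of monocarboxylate transporter genes and Apod were lower as well. Slc16a1 encodes MCT1, the monocarboxylate transporter that carries lactate and ketone bodies across brain endothelium. It had 455, 373, 444 and 557 CPM in CTRL MCAo and 134, 176, 197 and 124 CPM in YT-iKO MCAo (log2 fold change −1.61, standard error 0.26, adjusted p = 0.00852). Slc16a4, another member of the monocarboxylate transporter family, had 79.0 to 110.0 CPM in CTRL and 29.6 to 46.3 CPM in YT-iKO (−1.34, adjusted p = 0.037). Both transporters kept less than the lowest CTRL level in every YT-iKO library. Apod, which encodes the lipid-binding apolipoprotein D, had 225, 260.0, 201 and 349 CPM in CTRL and 70.2, 61.4, 76.0 and 80.6 CPM in YT-iKO (−1.83, standard error 0.27, adjusted p = 0.00356). Its sham levels were 53.3 to 64.5 CPM in CTRL and 13.7 to 21.6 CPM in YT-iKO, so that it was higher after MCAo than after sham in both genotypes without overlap.

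Coagulation and vasoactive genes made up the next group. F5 encodes coagulation factor V, the cofactor of the enzyme that makes thrombin. It had 28.3, 34.0, 36.3 and 34.9 CPM in CTRL MCAo and 9.33, 19, 14.1 and 7.78 CPM in YT-iKO MCAo (log2 fold change −1.51, standard error 0.20, adjusted p = 0.00137). Serpinb6b, an intracellular serine protease inhibitor, had 48.0 to 64.3 CPM in CTRL and 22.1 to 27.7 CPM in YT-iKO (−1.26, adjusted p = 0.0478). Edn3, a peptide of the endothelin family, had 59.0, 40.5, 59.3 and 50.2 CPM in CTRL and 20.3, 25.9, 29.2 and 19.5 CPM in YT-iKO (−1.20, adjusted p = 0.0497). Ddah1, the enzyme that breaks down the nitric oxide synthase inhibitor ADMA, had 53.3 to 64.2 CPM in CTRL and 20.4 to 29.4 CPM in YT-iKO (−1.22, adjusted p = 0.0356). F5 was called with each of the 16 libraries left out in turn, whereas the other 3 genes lost their call without CTRL MCAo replicate 4, where the adjusted p was 0.372 for Ddah1 and Edn3 and 0.463 for Serpinb6b.

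Ndnf, Rnase4, Scarf2, Spaar and Hrct1 were lower too. Ndnf, a secreted factor with a fibronectin type III domain that promotes vessel formation, had 213, 181, 239 and 251 CPM in CTRL MCAo and 82.8, 84.9, 112 and 69.9 CPM in YT-iKO MCAo (−1.38, adjusted p = 0.0478). Rnase4, a secreted ribonuclease whose gene overlaps Ang on chromosome 14, had 36.2 to 51.5 CPM in CTRL and 16 to 20.7 CPM in YT-iKO (−1.31, adjusted p = 0.0212). The kit does not mark strand, and reads of such overlapping genes cannot be told apart with certainty. Scarf2, a scavenger receptor family member, had 10.4 to 14.7 CPM in CTRL and 2.91 to 5.60 CPM in YT-iKO (−1.58, adjusted p = 0.00188). Spaar encodes a small polypeptide of lysosomes that restrains the growth kinase complex mTORC1, and it had 35.1, 43.7, 55.0 and 57.1 CPM in CTRL and 16.5, 27.5, 23.2 and 15.2 CPM in YT-iKO (−1.27, adjusted p = 0.00447). Hrct1, annotated 1.40 kb from Spaar on chromosome 4 (chr4:43727188-43728639 and chr4:43730034-43759462), had 17.6 to 30.3 CPM in CTRL and 5.71 to 11.1 CPM in YT-iKO (−1.45, adjusted p = 0.0686).

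The remaining called genes were diverse. Tlcd3b, a TLC domain protein linked to ceramide synthesis, had the largest decrease, from 30.5, 29.0, 24.9 and 30.8 CPM in CTRL MCAo to 4.43, 9.69, 5.71 and 6.40 CPM in YT-iKO MCAo (−2.20, standard error 0.26, adjusted p = 7.42e-04). Its annotation overlaps that of Aldoa. Cdkn2b encodes p15, an inhibitor of the cyclin D kinases, and had 16.4 to 22.7 CPM in CTRL and 7.68 to 13.8 CPM in YT-iKO (−1.04, adjusted p = 0.046). Gm32688, a gene model on chromosome 10, had 11.3 to 12.8 CPM in CTRL and 2.27 to 4.53 CPM in YT-iKO (−1.88, adjusted p = 0.00549). The single higher gene was Rpl3-ps1, a processed pseudogene of the ribosomal protein gene Rpl3 on the X chromosome (chrX:13202571-13203780). It had 5.33, 5.39, 5.20 and 6.12 CPM in CTRL and 23.5, 20.1, 18.6 and 18.2 CPM in YT-iKO (1.87, standard error 0.28, adjusted p = 0.00437). Rpl3 itself had a log2 fold change of −0.11 (adjusted p = 1), and how the counting split reads between a pseudogene and its parent is not given in the sources used here.

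How firmly the 22 calls held differed between genes. Tlcd3b, Amotl2, F5, Scarf2, Arhgap20, Rflnb, Apod, Wwtr1, Rpl3-ps1, Spaar and Gm32688 were called with any 1 of the 16 libraries left out. Slc16a1 was lost without CTRL MCAo replicate 4 (adjusted p = 0.108). Rnase4 and Ddah1 were lost without that library or YT-iKO MCAo replicate 3, with an adjusted p of up to 0.255 for Rnase4. Yap1, Slc16a4, Serpinb6b, Ndnf and Edn3 were lost without either of these, YT-iKO sham replicate 4 or CTRL sham replicate 2, and the adjusted p of Yap1 then reached 0.473. Cdkn2b was lost also without CTRL MCAo replicate 2, with an adjusted p of up to 0.463, and Hrct1 also without YT-iKO MCAo replicate 2, with an adjusted p of up to 0.76. Kank4 was lost without those 4 libraries and without replicate 1 of either MCAo group, with an adjusted p of up to 0.621. In the fit of abundant genes, 20 of the 22 were tested, all 20 were called, and each kept its call whichever library was left out and the gene was still tested. Yap1 had an adjusted p of 1.14e-07 there and Kank4, the weakest of the 20, 0.0141. Of the 20, Tlcd3b and Rpl3-ps1 averaged 9.92 and 7.93 CPM over the other 3 groups. They passed the filter of abundant genes only through the MCAo group where they were high, so their calls there do not show how firm they are.

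TEAD proteins recognise the bases GGAATG, read as CATTCC on the other strand, and promoters of the lower genes were searched for it on both strands. The sequences came from RefSeq on GRCm38.p6 and span 250 bases before to 50 after each annotated start. Of the 21 genes called lower, 20 had a sequence, and 5 of these (25%) held the letters, namely Amotl2, F5, Yap1, Wwtr1 and Hrct1, against 2812 of 17944 genes tested (15.7%). Among abundant genes the share was 51 of 211 genes called lower (24.2%), 18 of 95 called higher (18.9%) and 13.9% of the 7156 tested, and called genes had somewhat more annotated promoters each (1.37 lower and 1.52 higher, against 1.3 among all). With the longer CATTCCA, which contains this core, 0 of the 20 genes held the letters against 4.53% of all genes tested, and 15 of the 211 abundant genes called lower (7.11%) held them against 3.21% of all abundant genes. A match is a description of the sequence and does not show that TEAD binds there. The 250 bases before the start are shown for Amotl2 and F5, called genes with the core upstream of the start, and for Ccn1, a widely used target that was called among abundant genes. They read 5′ to 3′ in the direction of the gene, and capitals mark the TEAD core, which lies 65 bases before the start in Amotl2 (chr9:102717554-102717803, plus strand), 109 bases before it in F5 (chr1:164151585-164151834, plus strand) and 103 bases before it in Ccn1 (chr3:145649986-145650235, minus strand).
Amotl2: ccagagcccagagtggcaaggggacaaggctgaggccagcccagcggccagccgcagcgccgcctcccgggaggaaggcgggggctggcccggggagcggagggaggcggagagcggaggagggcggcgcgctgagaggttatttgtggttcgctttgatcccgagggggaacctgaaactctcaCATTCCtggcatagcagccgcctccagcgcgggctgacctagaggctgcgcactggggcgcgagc
F5: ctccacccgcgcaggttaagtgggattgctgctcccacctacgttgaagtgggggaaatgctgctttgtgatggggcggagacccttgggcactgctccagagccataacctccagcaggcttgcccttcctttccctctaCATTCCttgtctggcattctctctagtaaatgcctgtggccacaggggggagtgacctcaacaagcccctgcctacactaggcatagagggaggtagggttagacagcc
Ccn1: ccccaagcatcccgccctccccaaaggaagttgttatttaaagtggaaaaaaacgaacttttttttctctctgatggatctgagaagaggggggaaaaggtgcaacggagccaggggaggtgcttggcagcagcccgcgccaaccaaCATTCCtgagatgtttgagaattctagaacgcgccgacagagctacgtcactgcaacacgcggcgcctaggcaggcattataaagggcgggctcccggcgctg
All 3 windows carry the core once, as CATTCC.

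The sham contrast compares libraries that the MCAo contrast does not, although both come from 1 model with a shared estimate of the spread. All 21 genes called lower after MCAo were below 0 in the sham contrast, where 39.9% of all genes tested were, and their median log2 fold change there was −1.45. Of the 21, 18 were also called lower after sham, where 30 of 31085 genes (0.0965%) were called. The exceptions were Arhgap20 (−0.51, adjusted p = 0.99), Gm32688 (−1.18, adjusted p = 0.347) and Cdkn2b (−0.86, adjusted p = 0.172). Rpl3-ps1 was called higher after both operations, with a log2 fold change of 2.08 after sham. The difference of the genotype effect between MCAo and sham was called for 0 genes by edgeR, with 116 at an unadjusted p under 0.05, and also for 0 by DESeq2 and by limma-voom. With the density of counts on receptor genes as a term, 1 gene passed, Podn.

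Among the 9123 abundant genes, 261 were lower (2.86%) and 124 higher (1.36%) in YT-iKO after MCAo, and the median log2 fold change of all was 0.00. Most of these changes were small. The median size was 0.52 on the log2 scale for lower genes (0.24 to 2.15) and 0.50 for higher genes (0.21 to 2.60), and 33 lower and 7 higher genes reached 1. The groups did not overlap in 229 of the 261 and 100 of the 124, against 5.16% of all 9123 genes with YT-iKO below CTRL and 3.44% with YT-iKO above. With each library left out in turn, 129 of the 261 and 29 of the 124 kept their call throughout. The counts were 186 lower and 100 higher without YT-iKO MCAo replicate 2, 186 and 76 without replicate 4, and 105 and 52 without both. They were 138 and 38 without CTRL MCAo replicate 4. Of the genes named in the lists that follow, Ctnnb1, Slc6a6, Serpina3n, Eng, Sparcl1, Sele, Crim1, Cav2, Synpo2, Tgfbr3, Apobec3, Steap3, Tnfrsf19, Tead4, Ccn2, Lmo7, Fbln2, Ccn1, Ccnd1, C4b and Ehd2 lost their call without CTRL MCAo replicate 4, and most of them also without others, with an adjusted p of up to 0.326 (Ehd2). Hey1 lost it without replicate 1 or 3 of CTRL MCAo or replicate 1 of YT-iKO MCAo. Cbx6 lost it without CTRL MCAo replicate 4 or YT-iKO MCAo replicate 2. For 3 lower and 6 higher genes the mean over the other 3 groups was under 10 CPM, so that they passed the filter only through the MCAo group where they were high, and their calls among abundant genes rest on that. Tlcd3b, Rpl3-ps1, Serpina3n and Sele are among these. The library scale set by abundant genes, divided by total counts, was itself higher in YT-iKO MCAo (0.939 to 0.985) than in CTRL MCAo (0.893 to 0.928) without overlap (exact permutation test, p = 0.0286), and its part in these calls was not tested.

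After sham, 179 of the 9123 genes were lower (1.96%) and 34 higher (0.373%). Of the 261 genes called lower after MCAo, 256 were below 0 after sham, against 45.9% of all abundant genes, and 139 were called there. Of the 124 called higher, 122 were above 0 after sham, against 54.1% of all, and 20 were called. Across all 9123 genes, Pearson's r between the fold changes after MCAo and after sham was 0.703, and across all 31085 genes tested it was 0.121, both as a description over genes, which are not independent. The contrasts share no library.

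**Figure D3:**
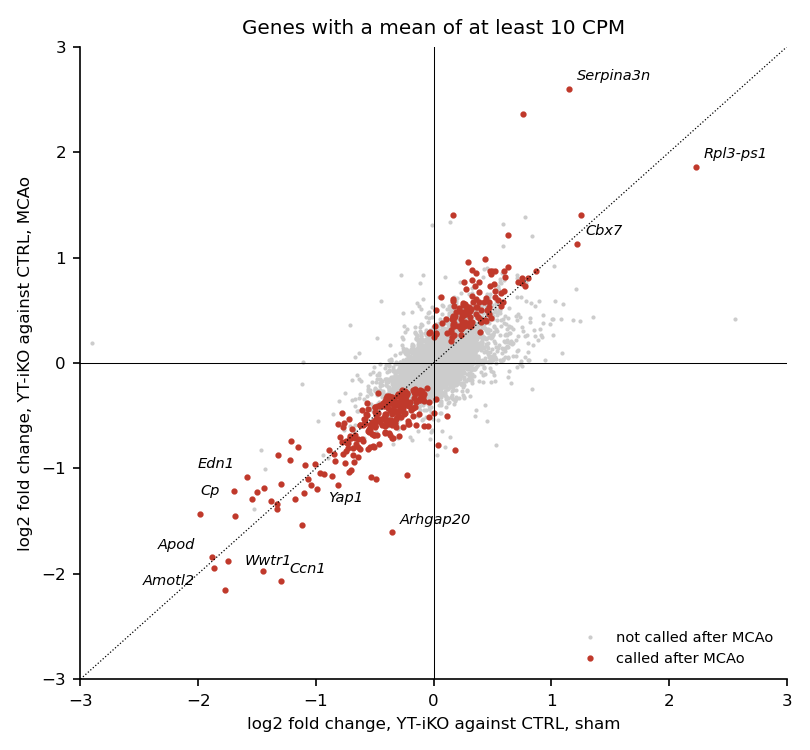
Log2 fold change of YT-iKO against CTRL after MCAo (y axis) and after sham (x axis) in the fit of abundant genes, 1 point for each of 9123 genes, with the 385 genes called after MCAo in red and the dotted line at equal values. Most red points lie near the line in the lower left or upper right, and Arhgap20 lies far below it, at −1.61 after MCAo and −0.36 after sham.

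The lists that follow are read against all 9123 abundant genes, of which 2.86% were lower and 1.36% higher, with a median log2 fold change of 0.00. Across all 31085 genes, edgeR had 464 at an unadjusted p under 0.05. DESeq2 called 80 lower and 12 higher there, and limma-voom 200 and 57. The lists and their members were chosen with earlier results of these data known. Their shares of called members and summed levels are therefore descriptions and no independent support. The Hippo pathway list held 26 genes (kinases, adaptors, TEAD factors and angiomotins), of which edgeR and DESeq2 called Amotl2, Wwtr1 and Yap1 across all genes and limma-voom 6. Among its 21 abundant members, 5 were lower, the targeted genes Yap1 and Wwtr1 among them, and 1 higher, with a median log2 fold change of −0.11. The summed level did not overlap between the groups (exact permutation test, p = 0.0286). That sum includes Yap1, Wwtr1 and the called gene Amotl2, so its separation does not describe the other members. Lats2, the kinase that phosphorylates YAP and TAZ, had 277, 273, 241 and 267 CPM in CTRL MCAo and 232, 177, 192 and 209.8 CPM in YT-iKO MCAo (−0.38, adjusted p = 0.016 among abundant genes). Ptpn14, a phosphatase that binds YAP, had 285 to 325 CPM in CTRL and 201 to 229 CPM in YT-iKO (−0.48, adjusted p = 0.0111). The higher member was Tead4, a TEAD factor, with 65.5 to 79.3 CPM in CTRL and 85.2 to 120.3 CPM in YT-iKO (0.44, adjusted p = 0.0786). Tead4 lost its call when any 1 of 7 libraries was left out.

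Of 22 general YAP/TAZ target genes, edgeR and DESeq2 called Amotl2 alone across all genes, and limma-voom called 6 lower. By edgeR 6 of 15 abundant members were lower and 0 higher, with a median of −0.19. The 6 were Amotl2, Ptpn14, Lats2, Crim1, Ccn2 and Ccn1. Their number was 3 without YT-iKO MCAo replicate 2, 4 without replicate 4, 3 without CTRL MCAo replicate 4 and 1 without both YT-iKO replicates. Ccn1, a matricellular protein that binds integrins, had 66.4, 27.9, 37.4 and 48.2 CPM in CTRL MCAo and 24.2, 6.40, 7.80 and 3.63 CPM in YT-iKO MCAo. All YT-iKO libraries lay below the lowest CTRL library, but replicate 1 was the highest of each group. The log2 fold change of Ccn1 was −2.13 (adjusted p = 0.984) across all genes, −2.07 (0.0927) among abundant genes and −2.44 (adjusted p = 9.21e-04) with the replicate block. Ccn2, a related matricellular protein, had 35.9, 44.3, 16.9 and 31.0 CPM in CTRL and 24.8, 5.51, 9.40 and 8.54 CPM in YT-iKO, so that the groups overlapped through 1 library (exact permutation test, p = 0.0571). Within each same-numbered pair, a pairing read from the data alone, Ccn2 was lower in YT-iKO. Among abundant genes its log2 fold change was −1.38 (adjusted p = 0.082).

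Some genes of focal adhesions and actin-linked proteins were lower, and most did not pass. Of 36 tested across all genes, edgeR called Rflnb, Arhgap20 and Kank4, whereas DESeq2 called 6 and limma-voom 8, all lower. The summed level of the 36 overlapped between the groups (exact permutation test, p = 0.171). Of 32 abundant members 10 were lower and 0 higher by edgeR, with a median of −0.11. Others called there included Arhgap29 (a GTPase-activating protein), Parva (parvin, which links integrins to actin), Trip6 and Lmo7 (LIM domain proteins of adhesions and junctions), Vcl (vinculin) and Synpo2 (an actin-binding protein). The number lower was 8 to 10 without YT-iKO MCAo replicate 2, replicate 4, CTRL MCAo replicate 4 or both YT-iKO replicates.

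Transporters of the blood-brain barrier gave the highest count of lower genes in these lists. Of 30 tested across all genes, edgeR called Slc16a1 and Slc16a4 lower, whereas DESeq2 called 7 and limma-voom 8. Of 29 abundant members, 13 were lower and 1, the taurine transporter gene Slc6a6, was higher, 25 had a fold change below 0, and the median was −0.38. The summed level did not overlap between the groups (24537 to 27183 CPM in CTRL and 18076 to 22646 CPM in YT-iKO, exact permutation test, p = 0.0286). Slco1a4, an organic anion transporter and 1 of the 13 endothelial markers, had 2583, 2469, 2119 and 2647 CPM in CTRL MCAo and 1418, 1240.0, 1696 and 1268 CPM in YT-iKO MCAo (−0.80, adjusted p = 9.96e-04 among abundant genes). Slc7a1, the carrier of arginine and lysine, had 719, 739.8, 699.6 and 983 CPM in CTRL and 347, 328, 492 and 331 CPM in YT-iKO (−1.07, adjusted p = 0.00156). Slco1c1, which carries thyroid hormone, had 1059 to 1210.4 CPM in CTRL and 605 to 937 CPM in YT-iKO (−0.63, adjusted p = 0.0112). Slc2a1, which encodes the glucose transporter GLUT1, did not pass: it had 2833 to 3449.8 CPM in CTRL and 1567 to 3371 CPM in YT-iKO (−0.37, adjusted p = 0.386). The number of lower transporters was 10 without YT-iKO MCAo replicate 2, 9 without replicate 4, 9 without CTRL MCAo replicate 4 and 7 without both YT-iKO replicates. After sham, 9 were lower and 0 higher.

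Iron genes were called mainly among abundant genes. Of 18 tested, 0 were called across all genes by edgeR, with 4 at an unadjusted p under 0.05, and 3 were lower by DESeq2 and 3 by limma-voom. Of 10 abundant members 4 were lower and 0 higher (median −0.23), and the summed level of 1890 to 2571 CPM in CTRL MCAo and 1324 to 1609 CPM in YT-iKO MCAo did not overlap (exact permutation test, p = 0.0286). Cp encodes ceruloplasmin, which oxidises iron on its way out of cells. It had 414, 391, 311 and 450.3 CPM in CTRL MCAo and 208, 145, 143 and 179.6 CPM in YT-iKO MCAo (−1.21, adjusted p = 1.73e-05 among abundant genes). Tfrc, the transferrin receptor, had 736, 668, 601 and 762 CPM in CTRL and 267, 379, 516 and 289 CPM in YT-iKO (−0.93, adjusted p = 0.0232). Slc40a1, the iron exporter ferroportin, and Steap3, a ferrireductase, were the other lower members (adjusted p = 0.00395 and 0.0573). With the replicate block, Cp was also called across all genes (adjusted p = 0.0652, against 0.379 without it), as it was by DESeq2 (0.00225).

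Angiogenic and vasoactive genes that passed were mostly lower, and most members did not pass. Of 22 abundant angiogenic factors and receptors, 7 were lower and 1 higher (median −0.12), and of 13 abundant vasoactive genes 3 were lower and 0 higher (median −0.13). The summed angiogenic level did not overlap between the groups (17750 to 19518 CPM in CTRL and 15272 to 16614 CPM in YT-iKO, exact permutation test, p = 0.0286), whereas the summed vasoactive level did (p = 0.743). Both pairs of counts were the same without YT-iKO MCAo replicate 2, without replicate 4 and without both. Vash1, an inhibitor of angiogenesis secreted by endothelium, had 49.3, 48.3, 37.5 and 50.7 CPM in CTRL MCAo and 20.9, 16.5, 14.9 and 23.3 CPM in YT-iKO MCAo. Its adjusted p was 0.219 across all genes (log2 fold change −1.25), 0.0167 with the replicate block and 4.41e-05 among abundant genes. Clec14a, an endothelial lectin-like receptor active in sprouting, had 211 to 306 CPM in CTRL and 92.7 to 135 CPM in YT-iKO (adjusted p = 0.553, 0.0738 with the block and 5.60e-05 among abundant genes). Edn1, which encodes endothelin-1, a strong vasoconstrictor, had 176, 140.1, 108 and 178 CPM in CTRL and 106, 71.3, 44.6 and 63.0 CPM in YT-iKO. Its highest YT-iKO library lay just under its lowest CTRL library, and its log2 fold change of −1.09 had an adjusted p of 0.931 across all genes, 0.0652 with the block and 0.00577 among abundant genes. Ang, the ribonuclease angiogenin that shares its locus with Rnase4, had 5.48 to 8.52 CPM in CTRL and 2.48 to 3.11 CPM in YT-iKO (−1.44, adjusted p = 0.137). DESeq2 called Vash1, Clec14a, Edn1 and Ang across all genes (adjusted p = 0.00166, 0.00703, 0.0588 and 7.47e-04), as did limma-voom.

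Among caveolar, junctional and matrix genes most did not pass, and those that did by edgeR with all libraries were lower. Of 15 abundant genes of caveolae and transcytosis, Cav1, Cavin2, Cav2 and Ehd2 were lower and 0 higher (median −0.35). Cav1, the main coat protein of caveolae, had 227 to 292 CPM in CTRL MCAo and 124 to 174 CPM in YT-iKO MCAo (−0.82, adjusted p = 0.00157 among abundant genes). The 4 became 2 without YT-iKO MCAo replicate 2 or CTRL MCAo replicate 4 and 1 without both YT-iKO replicates. Of 18 abundant junction genes, Ocln (occludin, −0.46, adjusted p = 0.00267) and Ctnnb1 (beta-catenin, −0.38, adjusted p = 0.0333) were lower and 16 had a fold change below 0 (median −0.14). Of 25 abundant matrix and basement membrane genes, Ndnf, Itih5, Lama4, Lamb2, Sparcl1 and Fbln2 were lower and 0 higher (median −0.11), whereas 2 were higher without YT-iKO MCAo replicate 2, 1 without both replicates 2 and 4, and 2, Lama5 and Timp3, by DESeq2. Summed levels did not overlap for caveolar genes (exact permutation test, p = 0.0286) and overlapped for junction and matrix genes (p = 0.143 and 0.286). The permutation does not use the replicate numbers. In every same-numbered pair of MCAo libraries the junction and matrix sums were lower in YT-iKO. Lama4, the laminin alpha 4 chain of endothelial basement membranes, had 229.5 to 327 CPM in CTRL and 139.8 to 201 CPM in YT-iKO (−0.75, adjusted p = 0.00577).

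Calls among Wnt and BMP genes were in both directions. Of 19 abundant genes of Wnt and barrier signalling, 4 were lower, Reck, Ctnnb1 and Tnfrsf19 among them, and Sox17 was higher (median −0.20), and 2 were lower without YT-iKO MCAo replicate 2, 3 without replicate 4, 1 without CTRL MCAo replicate 4 and 0 without both YT-iKO replicates, where Sox17 was not called either. Reck, which with GPR124 passes the Wnt7 signal to brain endothelium, had 181 to 220.3 CPM in CTRL MCAo and 118 to 161 CPM in YT-iKO MCAo (−0.57, adjusted p = 0.00664 among abundant genes). Sox17, an arterial transcription factor, had 276 to 321 CPM in CTRL and 357 to 413 CPM in YT-iKO (0.38, adjusted p = 0.0247). Of 16 abundant BMP and TGF-beta genes, the coreceptors Eng and Tgfbr3 were lower, and the response genes Smad6 and Hey1 were higher (median 0.06). Smad6, an inhibitory SMAD that BMP signals induce, had 53.6, 61.4, 55.3 and 51.4 CPM in CTRL and 101, 82.2, 80.4 and 68.4 CPM in YT-iKO (0.58, adjusted p = 0.0145). Hey1, a Notch and BMP response gene, had 36.0 to 52.8 CPM in CTRL and 55.4 to 82.7 CPM in YT-iKO (0.51, adjusted p = 0.0559). Eng, the coreceptor endoglin, was lower (−0.47, adjusted p = 0.0408), but neither coreceptor was called without YT-iKO MCAo replicate 2 or without CTRL MCAo replicate 4.

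Ligands and antagonists of these pathways had low counts, and whether they were called turned on the model. Bmp4, Bmp6, Wnt5b, Grem1 and Podn were not called by edgeR with the groups alone. With receptor-gene density as a term edgeR called all of them lower (adjusted p = 0.00191, 0.0035, 7.09e-04, 0.00699 and 2.45e-04), DESeq2 called all of them lower (adjusted p = 0.00309, 0.00492, 0.00243, 0.0588 and 0.0132) and limma-voom called all but Grem1 (0.118). The values that follow are from edgeR with the groups alone. Bmp4 had 7.12, 7.84, 5.92 and 6.66 CPM in the CTRL MCAo libraries and 3.37, 2.85, 2.68 and 1.43 CPM in the YT-iKO MCAo libraries (log2 fold change −1.46, adjusted p = 0.241). Bmp6 had 6.78 to 9.06 CPM in CTRL and 2.20 to 5.07 CPM in YT-iKO (−1.23, adjusted p = 0.267), and Wnt5b had 8.64 to 10.7 and 1.77 to 7.65 CPM (−1.31, adjusted p = 0.201). For these 3 ligands the groups did not overlap. Grem1, a secreted BMP antagonist, had 4.54, 4.55, 3.59 and 4.98 CPM in CTRL and 1.06, 3.38, 2.10 and 0.477 CPM in YT-iKO (−1.58, adjusted p = 0.825). Podn, a small leucine-rich proteoglycan, had 5.67, 12, 8.88 and 8.58 CPM in CTRL and 2.59, 6.76, 4.20 and 0.907 CPM in YT-iKO (−1.44, adjusted p = 0.379). After sham, Podn had 1.79 to 2.07 CPM in CTRL and 1.78 to 6.46 CPM in YT-iKO, and the difference of its genotype effects was −2.24 on the log2 scale (unadjusted p = 2.04e-04, adjusted p = 1, and adjusted p = 0.0175 with receptor-gene density as a term). In the YT-iKO MCAo libraries, Grem1, Podn, Wnt5b and Bmp6 were all highest in replicate 2 and lowest in replicate 4, the libraries with the highest and lowest receptor-gene density. With the density as a term their log2 fold changes were −1.65, −1.49, −1.32 and −1.23.

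**Figure D4:**
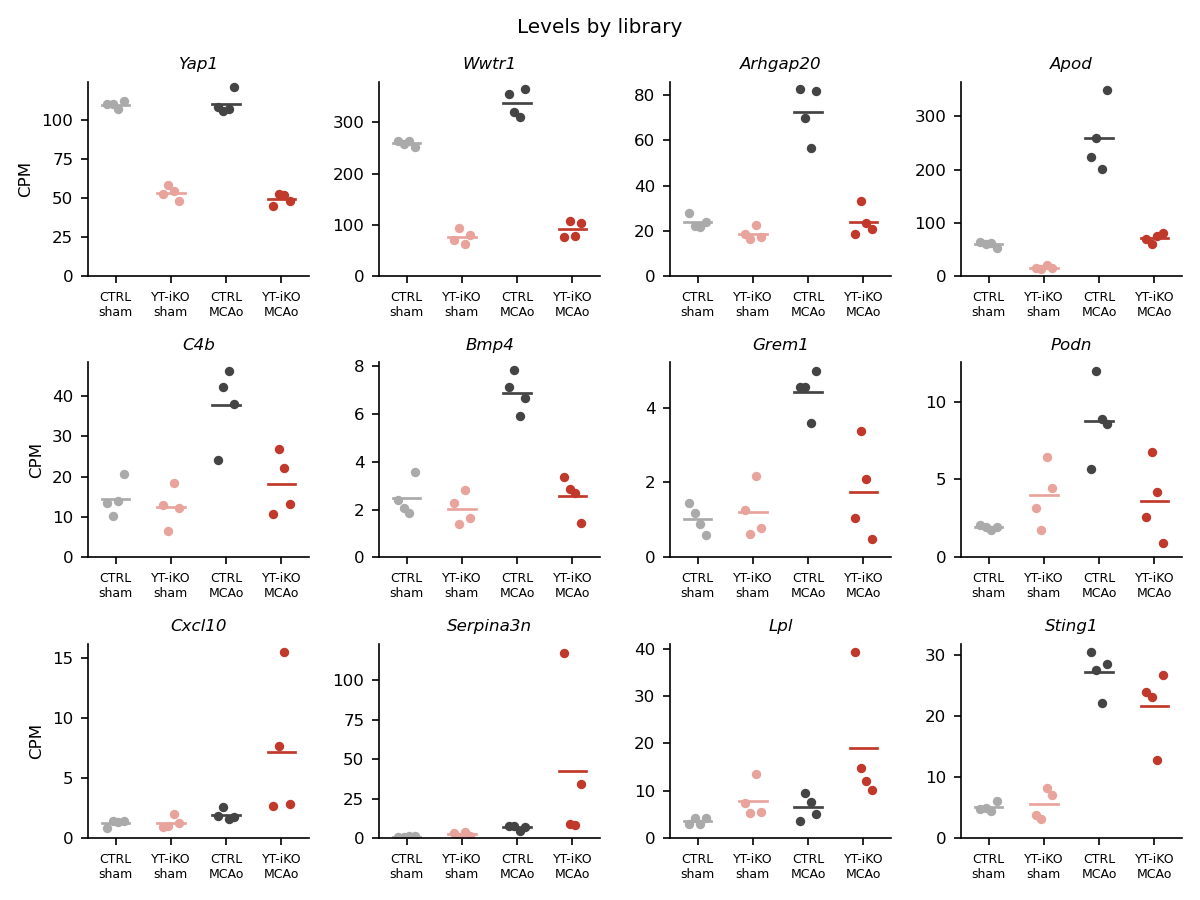
CPM (y axes, each starting at 0) of 12 genes in the 16 libraries, 1 point per library and a bar at the group mean, with 4 libraries in each of the CTRL sham, YT-iKO sham, CTRL MCAo and YT-iKO MCAo groups. Arhgap20, C4b and Bmp4 have their highest level in CTRL MCAo, and the YT-iKO MCAo values of Cxcl10, Serpina3n and Lpl spread widely, from 2.68 to 15.4, 8.56 to 117 and 10.1 to 39.2 CPM.

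The interferon-stimulated and cGAS-STING lists gave 0 calls among abundant genes by edgeR. With 2.86% of all abundant genes lower and 1.36% higher, counts of 0 in lists of this size say little about their members. Of all 9123 abundant genes, 1315 had an unadjusted p under 0.05 by edgeR. DESeq2 called 351 of the 9123 lower and 204 higher. Of 40 abundant interferon-stimulated genes 0 were called in either direction by edgeR (median −0.07), with 3 at an unadjusted p under 0.05, and DESeq2 called 2 lower. Of 9 abundant genes of the cGAS-STING pathway, which senses DNA in the cytoplasm, 0 were called by edgeR (median 0.04), with 1 at an unadjusted p under 0.05, and DESeq2 called 1 higher. Across all genes edgeR called 0 of 47 interferon-stimulated genes, with 5 at an unadjusted p under 0.05, against 2 higher by DESeq2 and 1 lower and 4 higher by limma-voom. Of 12 cGAS-STING genes there, edgeR and DESeq2 called 0, with 0 at an unadjusted p under 0.05, and limma-voom called Sting1 lower. Sting1, the adaptor of the pathway, had 30.5, 27.5, 22.2 and 28.6 CPM in CTRL MCAo and 23.9, 23.1, 12.8 and 26.8 CPM in YT-iKO MCAo, and the groups overlapped (−0.29, adjusted p = 1 by edgeR, and −0.91, adjusted p = 0.0293 by limma-voom). Within each same-numbered pair Sting1 was lower in YT-iKO. Cxcl10, a chemokine that draws T cells and is induced by interferon, had 1.85, 2.61, 1.62 and 1.74 CPM in CTRL and 2.68, 7.65, 15.4 and 2.82 CPM in YT-iKO. The groups did not overlap, although 2 YT-iKO libraries lay close to the highest CTRL library, and the log2 fold change of 1.67 had an adjusted p of 0.378 by edgeR. Cxcl10 was called by edgeR with receptor-gene density as a term (1.63, adjusted p = 0.00384), by DESeq2 (1.66, adjusted p = 0.0263) and by limma-voom (2.28, adjusted p = 2.13e-04). Without YT-iKO MCAo replicate 4, which had 2.82 CPM, it was 1.84 with an adjusted p of 0.0617. That fit keeps replicate 3, the highest at 15.4 CPM, on which the YT-iKO mean leans. In sham libraries Cxcl10 had 0.877 to 2.00 CPM, and the difference of its genotype effects was 1.86 (unadjusted p = 0.00434, adjusted p = 1).

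Single inflammatory genes differed without a common direction. C4b, a complement component, had 24.2, 42.2, 46.3 and 37.9 CPM in CTRL MCAo and 10.7, 26.9, 22.2 and 13.1 CPM in YT-iKO MCAo (−1.10, adjusted p = 0.151 across all genes, 0.0652 with the replicate block, 0.0936 among abundant genes and 0.00227 by DESeq2). The lowest CTRL library lay under the highest YT-iKO library, but within each same-numbered pair YT-iKO was lower. Serpina3n, an acute-phase protease inhibitor, had 8.02, 8.09, 4.67 and 7.20 CPM in CTRL and 117, 9.25, 8.56 and 34.5 CPM in YT-iKO (2.75, adjusted p = 0.299 across all genes and 0.0408 among abundant genes). DESeq2 gave Serpina3n 2.73 (adjusted p = 0.0803) and limma-voom 0.41 (adjusted p = 0.647). YT-iKO replicates 2 and 3 lay just above the CTRL range, and replicates 1 and 4 far above it. Sele, the adhesion molecule E-selectin, had 29.6, 12.1, 12.3 and 15.5 CPM in CTRL and 73.0, 41.0, 30.0 and 41.0 CPM in YT-iKO (1.36, adjusted p = 0.902 across all genes, 0.0979 by DESeq2 and 0.0427 among abundant genes). Il6st, the shared receptor chain gp130, had 454 to 821 CPM in CTRL and 371 to 457 CPM in YT-iKO (−0.65, adjusted p = 0.0218 among abundant genes). Lpl, lipoprotein lipase, had 3.65, 9.52, 7.72 and 5.22 CPM in CTRL and 39.2, 14.8, 12 and 10.1 CPM in YT-iKO (1.68, adjusted p = 0.233, and 0.0118 by DESeq2). By limma-voom Lpl had 0.60 (adjusted p = 0.297). The calls by edgeR among abundant genes, where 2.86% of all were lower and 1.36% higher, were as follows in the other lists. Chst2 was lower and Sele higher of 12 leukocyte adhesion genes, Il6st lower and Serpina3n higher of 15 acute-phase genes, and C4b lower of 4 complement genes. Those of Sele and Serpina3n rest on a filter passed only through YT-iKO MCAo. DESeq2 and limma-voom also called Chst2 lower across all genes. Ackr3 was lower of 3 chemokine genes, Apod of 12 lipid genes, Cdkn2b and Ccnd1 of 10 cell cycle genes, and F5 and Serpinb6b of 14 coagulation genes. Of 25 endothelial transcription factors 1 was lower and Sox7, Sox17 and Hey1 higher.

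**Figure D5:**
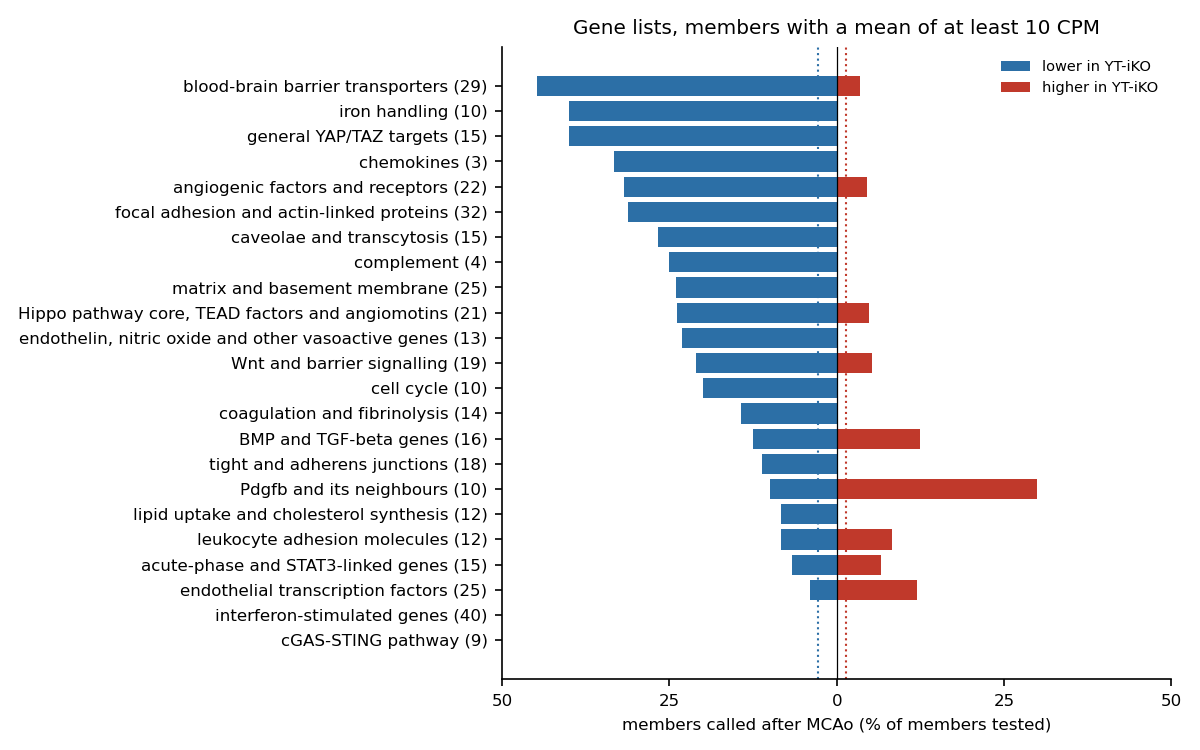
Share of the abundant members of each gene list (number in brackets) that were called lower (left, blue) or higher (right, red) in YT-iKO after MCAo, in percent, with dotted lines at the share of all abundant genes (2.86% lower, 1.36% higher). Blood-brain barrier transporters have 13 of 29 lower, and interferon-stimulated and cGAS-STING genes have 0. The lists were chosen with earlier results of these data known.

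Genes near Pdgfb were read separately because the Cre transgene uses the Pdgfb promoter. Pdgfb (chr15:79995874-80014977) had 457, 433, 408 and 492 CPM in CTRL MCAo and 468, 443, 521 and 494 CPM in YT-iKO MCAo (0.11, adjusted p = 0.628 among abundant genes). Cbx7, a Polycomb protein whose gene ends 24.8 kb away, had 80.8, 86.4, 78.6 and 72.1 CPM in CTRL and 162, 199, 173 and 164 CPM in YT-iKO. It was higher in every YT-iKO library (219.5% of the CTRL mean on average), with an adjusted p of 0.12 across all genes, 1.41e-04 by DESeq2, 0.0454 with the replicate block and 8.84e-06 among abundant genes. Apobec3, which overlaps Cbx7, had 125 to 165 CPM in CTRL and 178 to 293 CPM in YT-iKO (0.58, adjusted p = 0.0567 among abundant genes). The window of 100 kb around Pdgfb held 4 abundant genes, Pdgfb itself among them. Cbx7 and Apobec3 were the 2 called, and both were higher, whereas Pdgfb and Rpl3 were not called. A gene farther away, Cbx6, 161 kb from Pdgfb, was lower (−0.39, adjusted p = 0.0422), but not called without YT-iKO MCAo replicate 2 or without CTRL MCAo replicate 4. Cbx7 and Apobec3 were also higher after sham (log2 fold change 1.22 and 0.59, adjusted p = 4.73e-06 and 0.08). Whether the transgene carries sequence of these genes or alters them was not tested.

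The summed level of the 13 endothelial markers was 19794 to 22597 CPM in CTRL MCAo and 16435 to 19212 CPM in YT-iKO MCAo, a mean difference of −0.20 on the log2 scale without overlap (exact permutation test, p = 0.0286). It moved the same way as the lower genes above, and its part in them was not tested. Of the 13, edgeR called 0 across all genes and Slco1a4 alone among abundant genes. DESeq2 and limma-voom called Slco1a4 alone across all genes. Lists of 11 other cell types with 84 markers had 0 genes called by edgeR and 0 by DESeq2 across all genes, with 1 at an unadjusted p under 0.05 by edgeR, whereas limma-voom called Kcnj8, Abcc9, Gfap and Ttr lower and Stmn2 higher. Stmn2 was also called by DESeq2 among abundant genes. None of the summed levels of these lists differed by the exact permutation test (p from 0.286 upward). Pericyte markers, the highest of these, summed to 790.3 to 1396 CPM in CTRL and 774 to 1192 CPM in YT-iKO. Microglia and macrophage markers summed to 23.1 to 44.1 and 19.7 to 59.8 CPM, astrocyte markers to 90.0 to 142 and 77.6 to 117 CPM, and markers of monocytes and neutrophils to 6.51 to 22.8 and 1.34 to 30.0 CPM. Olig2, S100a8, Retnlg, Nkg7 and Tmem212 were at 0 in 1 MCAo library each. Xist, the RNA of the inactive X chromosome, differed between pools, with 833 and 1096 CPM in YT-iKO MCAo replicates 3 and 4 against 0.693 and 6.14 CPM in replicates 1 and 2, and 759 CPM in CTRL MCAo replicate 3 against 1.29, 2.86 and 22.7 CPM in replicates 1, 2 and 4. With Xist as a term, 18 genes were lower and 1 higher, and Yap1, Serpinb6b, Hrct1 and Kank4 were among those no longer called.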

How the data were processed

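RNA of sorted bECs was measured in 16 libraries, 4 per group, grouped by the genotype, surgery and replicate number in their labels. The authors amplified the RNA, aligned reads with STAR 2.7.8a to GRCm38 (versions from the submitters' processing notes) and deposited raw counts per gene. The program that counted, its handling of strand and its filter on genes are not given in the sources used here. The table held 37003 genes, of which 36861 were found by identifier in GENCODE M21 (GRCm38) for positions, and 142 had no symbol. All columns of per-sample values were used through their sample names.

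Counts were tested in R 4.3.3 with edgeR 4.0.16 (TMM factors, filterByExpr at its minimum of 10 counts and 15 in total, glmQLFit and glmQLFTest, 4 groups in 1 model). A second fit used genes that average 10 CPM or more and factors from those genes. Single values were tested by exact two-sided permutation over 70 assignments, on log2(CPM + 1) for genes and summed lists. Alternatives were DESeq2 1.42.0, limma 3.58.1 (voom with sample quality weights), other factors and filters, an adjusted p under 0.05, the 8 MCAo libraries alone, terms for Xist and receptor-gene density, a replicate block, and each library left out. DESeq2 kept its default filter on mean count before adjustment, whereas the adjustment in edgeR and limma-voom covered all genes tested. The fit without both YT-iKO MCAo replicates 2 and 4, and all alternatives of the fit of abundant genes, were chosen after seeing the data. The edgeR steps were tested on simulated data.

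Replicate numbers in the labels were read as pairs of MCAo libraries from the data alone. The replicate block, however, gave each number 1 effect shared by all 16 libraries, sham included. For number 4, MCAo and sham libraries correlated at −0.264 within CTRL and −0.279 within YT-iKO. Across genotypes these were 0.148 (CTRL sham with YT-iKO MCAo) and 0.243 (YT-iKO sham with CTRL MCAo). Over the 1000 most variable abundant genes, deviations from the group means correlated at 0.227 to 0.738 in the 4 same-numbered pairs (median 0.491), all over 0.1, against a median of −0.182 for different numbers. Deviations from a group mean sum to 0 within the group, so the medians for same and different numbers are not independent. Statements on same-numbered pairs are descriptions that rest on this reading. Over all 4 groups, 19 of 24 same-numbered pairs were over 0.1, with a range of −0.279 to 0.738. The labels do not say whether libraries with the same number share a day, a sex or a depth. Xist was low in both MCAo libraries of numbers 1 and 2 and high in both of number 3. For number 4 it was 22.7 CPM in CTRL and 1096 CPM in YT-iKO. Total counts in CTRL and YT-iKO MCAo were 19504260 and 23074547 (number 1) and 12791352 and 11418262 (number 2). They were 12012438 and 12531666 (number 3) and 18662626 and 21510934 (number 4). What the numbers stand for was not tested.

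The genes named were those called after MCAo, Yap1 and Wwtr1, genes that the study's text names for these libraries, members of each list with the smallest p, genes within 100 kb of Pdgfb, the genes with the smallest p that missed the threshold, and genes gained without YT-iKO MCAo replicate 4. Other list members named are those called among abundant genes, of which a few are not reported here by name. The members and lists were chosen with earlier results of these data known. Reads of amplified RNA without molecular identifiers are not independent molecules.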

Additional observations from a re-analysis of the deposited data

Results flagged for a closer look

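Of 80 group values tested, 3 single libraries lay far from the other 3 of their group, by a gap past Dixon's limit, and chance flags about 1 in 20 groups. Yap1 in CTRL MCAo replicate 4 was 120.5 CPM against 106 to 108 CPM in the other CTRL MCAo libraries. Rflnb in YT-iKO MCAo replicate 1 was 30.2 CPM against 22.2 to 23.3 CPM, still well below the lowest CTRL MCAo level of 87.5 CPM. Lpl in YT-iKO MCAo replicate 1 was 39.2 CPM against 10.1 to 14.8 CPM. That library was also the highest of its group for Serpina3n (117 CPM), Ccn1 (24.2 CPM) and Ccn2 (24.8 CPM).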

How the results depend on the processing

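The direction of change held in all alternatives: over 37 genes and 1026 values for single genes, 0 changed sign when called, 853 stayed on the same side of the threshold, 118 newly passed it and 55 no longer did. Against 21 genes lower, DESeq2 gave 80, limma-voom 200, the filter at a mean of 10 CPM 261 and receptor-gene density as a term 230, and leaving out 1 library gave 10 to 43. Against 1 gene higher, RLE factors, no filter and a filter of CPM above 1 each gave 2, the 8 MCAo libraries alone and the replicate block each 3, the fit without both YT-iKO MCAo replicates 2 and 4 5, DESeq2 12, density as a term 48, limma-voom 57 and the filter at 10 CPM 124, and leaving out 1 library gave 1 to 4. Among abundant genes, 261 lower became 105 without both replicates and 171 at an adjusted p under 0.05, with 138 to 359 when 1 library was left out, and 124 higher became 204 with DESeq2, 52 without both replicates and 61 at an adjusted p under 0.05, with 38 to 210. The extremes came without CTRL MCAo replicate 4 (lowest) and YT-iKO sham replicate 2 (highest). For the 0 genes called in the difference between MCAo and sham, density as a term gave 1. The TEAD share of 25% became 0% with CATTCCA (7.11% among abundant genes called lower, against 3.21% of all), and the 2 genes called near Pdgfb became 1 within 50 kb and 3 within 200 kb, of which Cbx6 was lower and Cbx7 and Apobec3 higher. The cause of these shifts was not tested, except that a stricter threshold leaves fewer calls by construction.

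With the replicate block, 31 genes were lower and 3 higher, 284 and 138 among abundant genes and 0 in the difference between MCAo and sham. The block newly passed 12 genes in all, of which Cbx7, Vash1, Edn1, Cp, Clec14a, C4b and Ccn1 are given with their values in the comparison and Rin1 (adjusted p = 0.0317) was another, and it took no call from the 22. Genes that average under 10 CPM, such as Scarf2, Gm32688, Bmp4, Grem1 and Cxcl10, were tested only in the fit across all genes. Scarf2 and Gm32688 were called there, and Bmp4, Grem1 and Cxcl10 were called by DESeq2 and by edgeR with density as a term, but not by edgeR with the groups alone. What depth limits was not tested.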

Other observations

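Outside the lists, 2 further abundant genes, chosen after their values were seen, were higher in YT-iKO after MCAo. Gja4, the arterial gap junction protein connexin 37, had 25.4, 17.3, 12.9 and 18.5 CPM in CTRL MCAo and 96.8, 38.2, 20.3 and 40.2 CPM in YT-iKO MCAo (log2 fold change 1.40, adjusted p = 0.0338 among abundant genes by edgeR, and 0.109 without CTRL MCAo replicate 4). Its sham levels were 8.04 to 10.8 CPM in CTRL and 8.60 to 12.7 CPM in YT-iKO, and the difference of its genotype effects had an unadjusted p of 0.0205 and an adjusted p of 1. Pdgfa, a ligand of the PDGF receptors, had 10.9 to 13.2 CPM in CTRL MCAo and 19.1 to 26.0 CPM in YT-iKO MCAo without overlap (0.87, adjusted p = 0.0119). After sham Pdgfa had a log2 fold change of 0.48 (adjusted p = 0.254), and the difference of its genotype effects had an unadjusted p of 0.138 and an adjusted p of 1.

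Some genes lower in YT-iKO lie next to each other. Spaar and Hrct1 are 1.40 kb apart on chromosome 4, Rnase4 and Ang overlap on chromosome 14, and Ddah1 and Ccn1 are 109 kb apart on chromosome 3. Whether neighbours fell together more often than other genes was not tested.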
